A study of Homo sapiens with 12 samples.

Results

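The HOX cluster genes of the MDA-MB-468 cell line, a human triple-negative breast cancer line, were described across 4 treatment groups of 3 RNA sequencing libraries each. Members were all rows of the count table whose symbol is HOX, a letter from A to D and digits only. There were 40 such rows and 39 members among 58735 rows in all, because HOXC5 had 2 rows and the row with more counts was kept. They comprised 11 HOXA genes on chromosome 7, 10 HOXB genes on chromosome 17, 9 HOXC genes on chromosome 12 and 9 HOXD genes on chromosome 2. Of these, 25 had enough counts to be tested: 10 HOXA, 7 HOXB and 8 HOXC genes. The other 14 were HOXA7, HOXB1, HOXB5, HOXB8, HOXC5 and the whole HOXD cluster. The filter is set by the counts of any group of libraries, so the 25 tested genes are not a picture of the 39.

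All 12 libraries came from wild-type MDA-MB-468 cells, labelled with the letters A, B and C within a group. The vehicle group received DMSO. Docetaxel, a taxane that stabilises microtubules, was given at 10 nM for 8 h or for 24 h to cells on 10 cm plates. The group called the combination here received 5 µM tazemetostat, an inhibitor of the methyltransferase EZH2, with 5 µM ipatasertib, an inhibitor of the kinase AKT. Its cells were dosed for 24 h on 6 cm plates in medium with 2% serum, after 5 days of culture in which cells of that arm were held in tazemetostat or in vehicle. The labels give no library of either inhibitor alone, so the contributions of the inhibitors cannot be told apart. For the DMSO libraries no hours, serum or plate are stated, so treatment and culture format cannot be told apart. Whether the letters were separate cultures is not said, and the spread behind each p-value may then be technical.

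HOX genes encode homeodomain transcription factors that stand in order along their clusters. Genes of low number at the 3′ end act towards the head of the embryo, and genes of high number at the 5′ end act towards the tail, the distal limb and the urogenital tract. In cells that do not use a cluster it is a classical target of Polycomb repression: PRC2, whose catalytic subunit is EZH2, methylates lysine 27 of histone H3, while Trithorax-type COMPASS complexes maintain active HOX genes. HOX proteins bind DNA together with cofactors of the TALE family (PBX, MEIS and PKNOX). In breast tissue several HOX genes remain expressed after development. Below, genes numbered 1 to 3 are called anterior, 4 to 8 central and 9 to 13 posterior.

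Stretches of 250 bases upstream of the RefSeq start (GRCh38.p14) are shown for HOXA13, HOXA11 and HOXA10, neighbouring genes that were all higher in the combination. HOXA4 of the same cluster, which did not pass the test there, and HOXD13, with almost no counts in any library, are shown beside them. CG dinucleotides are in capitals, and all are read 5′ to 3′ on the gene's strand.
HOXA13: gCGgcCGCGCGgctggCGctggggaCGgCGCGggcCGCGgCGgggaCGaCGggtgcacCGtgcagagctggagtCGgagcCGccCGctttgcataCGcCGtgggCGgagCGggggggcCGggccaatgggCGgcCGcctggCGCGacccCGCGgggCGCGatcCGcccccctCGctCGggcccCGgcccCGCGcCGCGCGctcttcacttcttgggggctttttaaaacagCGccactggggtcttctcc
HOXA11: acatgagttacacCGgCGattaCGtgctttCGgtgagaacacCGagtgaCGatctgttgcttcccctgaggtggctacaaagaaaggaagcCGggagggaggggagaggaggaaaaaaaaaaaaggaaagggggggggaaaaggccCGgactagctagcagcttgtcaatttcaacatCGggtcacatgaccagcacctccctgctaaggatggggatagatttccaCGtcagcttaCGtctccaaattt
HOXA10: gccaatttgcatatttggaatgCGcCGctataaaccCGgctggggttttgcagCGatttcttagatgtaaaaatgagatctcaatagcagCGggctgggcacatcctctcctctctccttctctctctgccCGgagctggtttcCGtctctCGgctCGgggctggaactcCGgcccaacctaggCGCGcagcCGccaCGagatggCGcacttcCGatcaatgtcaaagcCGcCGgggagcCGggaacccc
HOXA4: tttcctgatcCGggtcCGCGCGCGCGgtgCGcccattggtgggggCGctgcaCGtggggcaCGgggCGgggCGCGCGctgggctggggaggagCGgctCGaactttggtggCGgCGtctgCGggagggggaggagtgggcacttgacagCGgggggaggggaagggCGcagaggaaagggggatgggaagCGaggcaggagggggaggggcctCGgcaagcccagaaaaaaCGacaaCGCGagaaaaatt
HOXD13: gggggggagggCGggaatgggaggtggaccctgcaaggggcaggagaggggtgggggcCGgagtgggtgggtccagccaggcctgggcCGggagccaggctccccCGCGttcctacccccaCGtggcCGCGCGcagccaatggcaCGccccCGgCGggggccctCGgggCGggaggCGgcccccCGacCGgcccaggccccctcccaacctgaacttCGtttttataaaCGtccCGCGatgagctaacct
The stretches lie at chr7:27200092-27200341 (HOXA13), chr7:27185233-27185482 (HOXA11), chr7:27179862-27180111 (HOXA10) and chr7:27130758-27131007 (HOXA4), all on the minus strand, and at chr2:176092471-176092720 (HOXD13) on the plus strand. By the GENCODE 29 coordinates used for the other positions, the HOXA10 stretch lies inside the gene and those of HOXA4 and HOXA13 overlap theirs. RefSeq's table matched 20 of the 39 members, 9 HOXA, 1 HOXB, 2 HOXC and 8 HOXD genes. CG dinucleotides numbered 40 in HOXA13, and 2.06% of the 27305 promoters in the table held as many. They numbered 26 in HOXA4 (19.2% held as many), 21 in HOXD13 (29.8%), 19 in HOXA10 (34.3%) and 11 in HOXA11 (50%). The 20 matched members had a median of 20.5 with a range from 4 to 40, against a median of 11 over all promoters. Among the stretches shown, HOXA11, which rose in the combination, held the fewest, and HOXA4, which did not pass the test, held more than HOXA10. The letters TGATNNAT, searched on both strands as a form of the site of HOX and PBX proteins, stood in 3 of the 20 stretches (HOXA2, HOXB1 and HOXD11) and in 6.69% of all promoters. A match is a description of the letters, not a site.

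The level of a gene is its CPM (count per library total after TMM scaling), and levels of different genes are compared only as CPM per kilobase (kb) of exon. Total counts lay between 29820617 and 45807059 per library. Without TMM factors the members together had 209 ± 4.48 CPM in DMSO (SD, n = 3) and 231 ± 5.46 in the combination, with 185 ± 1.59 and 216 ± 2.81 after 8 h and 24 h of docetaxel. The summed CPM of 7 epithelial markers lay between 12630 and 16070 in all 12 libraries, and of the receptor genes the progesterone receptor gene PGR was at or near 0. The oestrogen receptor gene ESR1 was at 1.86 CPM on average in DMSO and at 0.843 in the combination, where it fell (adjusted p = 0.000167), and ERBB2, which encodes HER2, was at 100.7 CPM in DMSO. Transcripts of the mitochondrial genome took 4.21% ± 0.244 (SD, n = 3) of the counts in DMSO, 8.55% ± 0.409 and 6.38% ± 1.28 after 8 h and 24 h of docetaxel, while the combination had 8.49% ± 0.799. Their part in the results was not tested.

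In vehicle-treated cells the HOXC cluster held most HOX counts and its 5′ genes had the highest levels per length. HOXC10, a lumbar and hindlimb patterning gene, stood at 17.4 ± 0.377 CPM per kb (SD, n = 3) and HOXC13, a regulator of hair and nail keratins, at 17.0 ± 1.03, which did not differ beyond their spread. Per kb of the longest transcript HOXC10 stood higher, at 21.0 against 17.0 for HOXC13, so this depends on the length used. HOXC12 followed at 9.63 ± 0.267 and HOXB7, a gene often overexpressed in breast cancer, at 8.52 ± 0.261 CPM per kb. HOXC9, a gene of the thoracic spinal cord, was the fifth at 4.45 ± 0.630. HOXC11 stood at 3.46 ± 0.279, and lower still were HOXA5 at 2.69 ± 0.208 and HOXA3 at 2.32 ± 0.142, whose libraries overlapped. The lowest tested members were HOXB9 at 0.0441 ± 0.0264 and HOXA13 at 0.0585 ± 0.0356 CPM per kb. Expressed genes and genes near 0 alternated along the HOXB cluster, where HOXB7 stood between HOXB6 at 0.255 ± 0.0652 CPM per kb and HOXB8 with 0 counts.

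**Figure D1:**
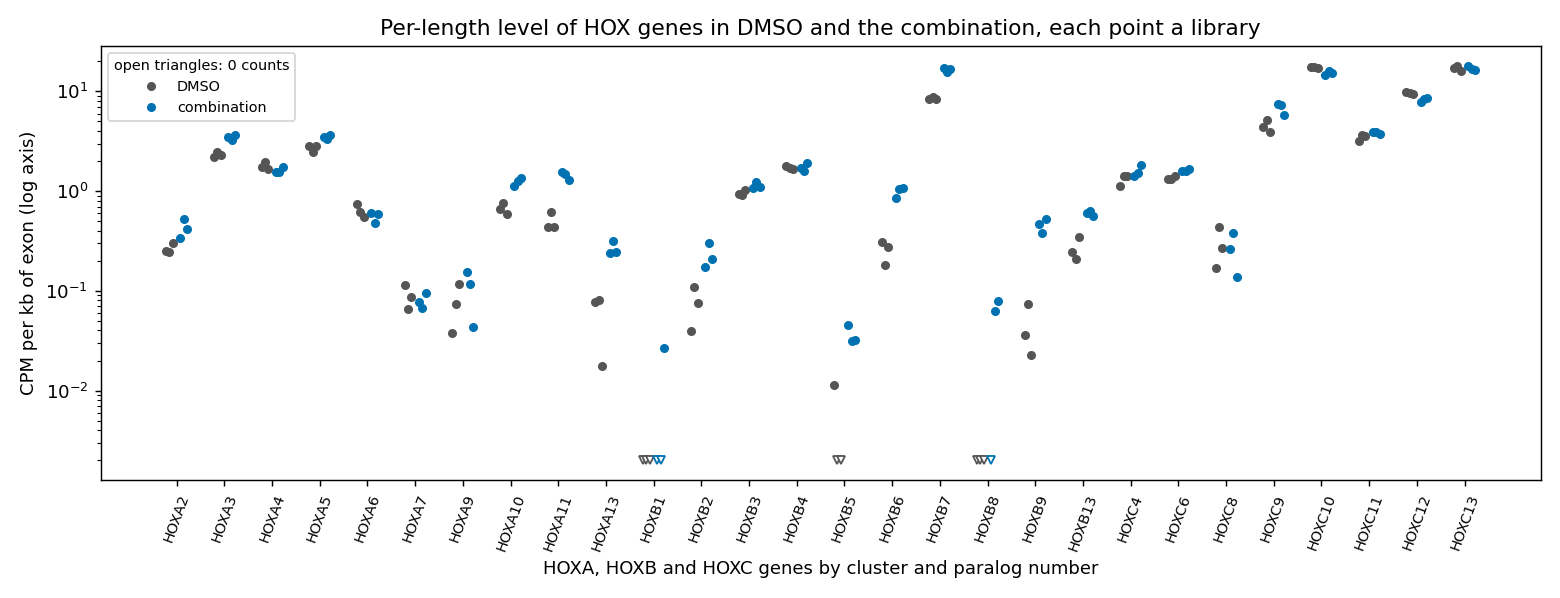
CPM per kb of exon on a log axis for the HOXA, HOXB and HOXC genes shown, in the 3 DMSO libraries (grey) and the 3 combination libraries (blue), with open triangles for libraries at 0 counts. HOXC10 and HOXC13 are highest in DMSO at 17.4 and 17.0 on average, and HOXB9 rises from 0.0441 to 0.455.

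The combination was compared with DMSO to ask how the HOX genes stood after inhibition of EZH2 and AKT. Of the 25 tested members 13 rose and 2 fell (edgeR's quasi-likelihood test, Benjamini-Hochberg adjusted p under 0.05 over 17780 genes). Over all genes tested 31.4% rose and 31.4% fell, so that 60% of the members and 62.8% of all genes were called in either direction. The members' median log2 fold change was 0.37, against 0.01 over all genes. Rises of at least 2-fold were called for 6 members (HOXB9, HOXA13, HOXB6, HOXB2, HOXA11 and HOXB13), against 12.1% of all genes. HOXB9 passed the filter on counts only through the combination libraries, as did 5.34% of all genes tested, so its call follows in part from the filter. Of the 24 other tested members 12 rose and 2 fell, with a median of 0.32, and 5 rose at least 2-fold. By cluster, 6 of 10 HOXA genes rose with a median log2 fold change of 0.54, and 6 of 7 HOXB genes with a median of 1.14 (5 of 6 without HOXB9). Of the 8 HOXC genes 1 rose and 2 fell, with a median of 0.09. By position, 4 of 5 anterior, 3 of 9 central and 6 of 11 posterior genes (HOXB9 among them) rose, and both genes that fell were posterior. The difference between clusters or positions was not tested.

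**Figure D2:**
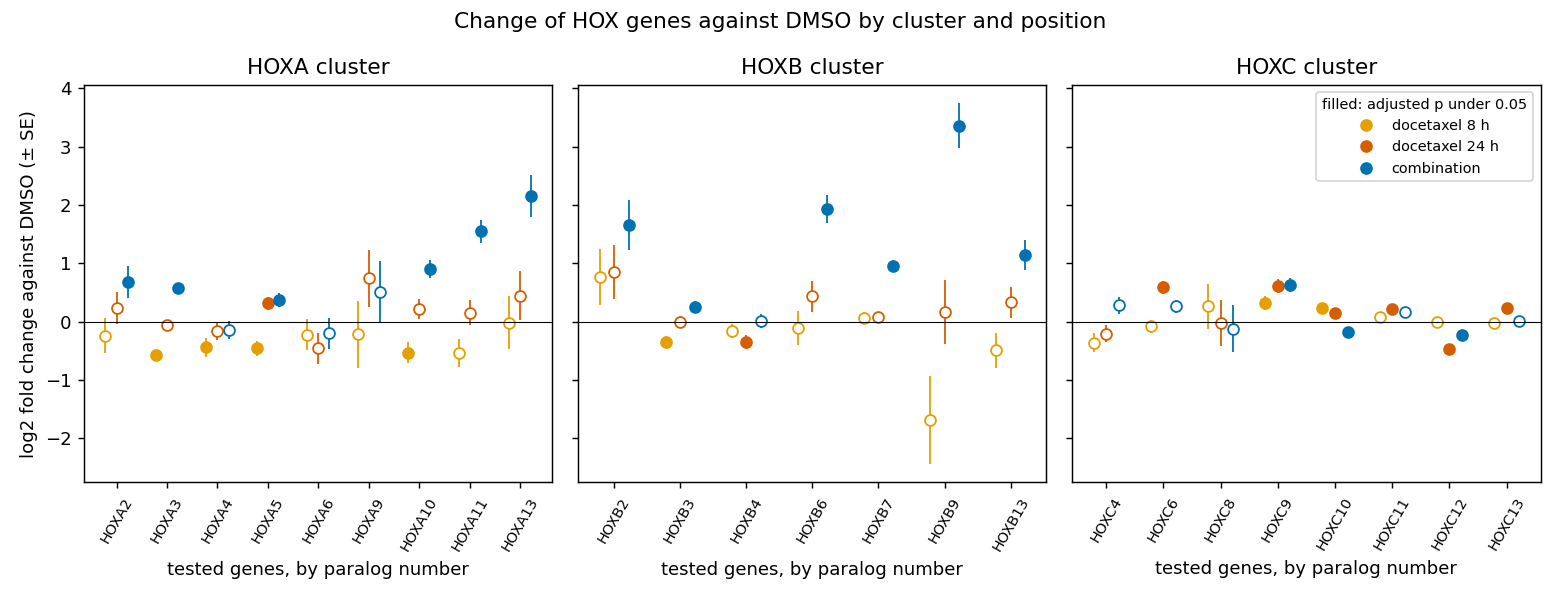
Log2 fold change against DMSO (± SE) of tested members, in order of paralog number within each cluster, for docetaxel at 8 h and 24 h and for the combination (n = 3 libraries per group). Filled points passed the test. In the combination they climb along HOXA from 0.90 at HOXA10 to 2.15 at HOXA13 and stay between -0.23 and 0.63 in HOXC. In HOXB the largest is HOXB9 (3.36), whose call follows in part from the filter, and the next is HOXB6 (1.93).

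HOXB9 (chromosome 17, 48621159 to 48626356, minus strand), a gene of thoracic patterning and mammary development, showed the largest fitted rise of the family. Its libraries A, B and C held 0.0921, 0.190 and 0.0591 CPM in DMSO, and 1.21, 0.972 and 1.34 CPM in the combination. Every combination library lay above every DMSO library, 10.3-fold on average in the fit, with a log2 fold change of 3.36 ± 0.39 (SE). The DMSO level rests on 12 counts over 3 libraries and the combination level on 110 counts, and no DMSO or docetaxel library held more than 6. Because the combination alone brought the gene past the filter, these values are a description and no p is given. HOXB6 (chromosome 17, 48595751 to 48604992), a central gene expressed in limb and blood progenitors, held 0.806, 0.476 and 0.709 CPM in DMSO. It reached 2.20, 2.75 and 2.81 CPM in the combination, without overlap, for a log2 fold change of 1.93 ± 0.24 (adjusted p = 3.46e-07). HOXB2 (chromosome 17, 48540894 to 48544989), a hindbrain patterning gene, is an anterior member with few counts. It had 0.0921, 0.254 and 0.177 CPM in DMSO and 0.402, 0.713 and 0.490 CPM in the combination. All 3 combination libraries were higher, with a log2 fold change of 1.65 ± 0.43 (adjusted p = 0.00192).

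HOXB13 (chromosome 17, 48724763 to 48729178) is the most posterior HOXB gene and a lineage factor of the prostate. It held 0.852, 0.730 and 1.21 CPM in DMSO and 2.08, 2.17 and 1.93 CPM in the combination. The groups did not overlap and the log2 fold change was 1.14 ± 0.26 (adjusted p = 0.000477). HOXB7 (chromosome 17, 48607227 to 48633572) was already well expressed, and its libraries held 12.8, 13.5 and 12.8 CPM in DMSO. They held 26.1, 24.1 and 25.8 CPM in the combination, a log2 fold change of 0.96 ± 0.09 (adjusted p = 4.33e-09), with the smallest adjusted p of the family. In CPM, which is not scaled for gene length, HOXB7 gained more than the other HOXB genes together, from 13.02 ± 0.399 to 25.3 ± 1.06 (SD, n = 3). HOXB3 rose by 0.25 ± 0.10 on the log2 scale (adjusted p = 0.0331). Its call was lost without DMSO library A, DMSO library B or combination library B, where the adjusted p was 0.0942, 0.0974 and 0.146, and with library totals (0.0757) or no filter (0.145). HOXB4, a regulator of blood stem cells, did not pass the test and stood at 6.43 ± 0.238 and 6.48 ± 0.595 CPM (SD, n = 3).

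In the HOXA cluster the 3 posterior genes next to one another rose most. HOXA13 (chromosome 7, 27193503 to 27200106, minus strand), a gene of the distal limb and genital tract, had 0.391, 0.412 and 0.0887 CPM in DMSO. It had 1.21, 1.62 and 1.24 CPM in the combination, all above DMSO, for a log2 fold change of 2.15 ± 0.36 (adjusted p = 1.67e-05). HOXA11 (chromosome 7, 27181510 to 27185223), a gene of the kidney, forelimb and uterus, held 1.01, 1.43 and 1.005 CPM in DMSO. With 3.59, 3.40 and 3.01 CPM in the combination it stood apart from DMSO, at a log2 fold change of 1.55 ± 0.20 (adjusted p = 3.32e-07). HOXA10 (chromosome 7, 27170591 to 27180261), a uterine patterning gene, went from 2.44, 2.79 and 2.19 CPM to 4.18, 4.63 and 5.07 CPM. That was a rise of 0.90 ± 0.16 on the log2 scale (adjusted p = 3.08e-05), again without overlap. These are the 3 genes whose upstream stretches, with 40, 11 and 19 CG dinucleotides are shown. HOXA9, the next gene towards the 3′ end and a leukaemia oncogene, did not pass the test and had 0.231 ± 0.120 CPM in DMSO and 0.317 ± 0.170 in the combination (SD, n = 3).

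Anterior HOXA genes moved less. HOXA3 (chromosome 7, 27106184 to 27152581), which patterns the third pharyngeal arch, held 9.51, 10.7 and 9.81 CPM in DMSO and 14.9, 13.9 and 15.8 CPM in the combination. The groups did not overlap, and the log2 fold change was 0.57 ± 0.09 (adjusted p = 3.80e-06). HOXA2 (chromosome 7, 27100354 to 27102811), which patterns the second pharyngeal arch, held 0.622, 0.603 and 0.739 CPM against 0.836, 1.30 and 1.01 CPM. Its rise of 0.68 ± 0.27 on the log2 scale (adjusted p = 0.0333) rested on single libraries. Without DMSO library A or B, or combination library B or C, the adjusted p was 0.0906, 0.0837, 0.169 and 0.058, with DESeq2 it was 0.062, and with no filter on counts it was 0.0853. HOXA5, a gene of lung and mammary epithelium, rose by 0.37 ± 0.12 on the log2 scale (adjusted p = 0.00879), from 4.596 ± 0.354 to 5.95 ± 0.260 CPM (SD, n = 3). HOXA4 and HOXA6 did not pass the test, with means of 3.13 and 0.816 CPM in DMSO and 2.84 and 0.714 CPM in the combination.

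Among the abundant HOXC genes the changes were small and went both ways. HOXC9 (chromosome 12, 53994895 to 54003337, plus strand) held 7.30, 8.60 and 6.50 CPM in DMSO and 12.5, 12.3 and 9.84 CPM in the combination. It was the HOXC gene that rose, by 0.63 ± 0.12 on the log2 scale (adjusted p = 4.96e-05), without overlap. HOXC10 (chromosome 12, 53985065 to 53990279) went from 41.1, 41.2 and 39.6 CPM to 34.1, 37.3 and 35.8 CPM. It fell by 0.19 on the log2 scale (SE 0.06, adjusted p = 0.00628), and all 3 combination libraries were lower. HOXC12 (chromosome 12, 53954834 to 53958956) went from 32.9, 32.3 and 31.1 CPM to 26.1, 28.0 and 28.3 CPM. It fell by 0.23 on the log2 scale (SE 0.06, adjusted p = 0.00287), also without overlap. HOXC13 (chromosome 12, 53938765 to 53946544), the gene at the cluster's 5′ end, had 41.6, 43.4 and 38.5 CPM in DMSO and 43.9, 40.8 and 39.7 CPM in the combination. These values overlapped and did not pass the test. HOXC6 (log2 fold change 0.26 ± 0.11, adjusted p = 0.0504) and HOXC11 (0.17 ± 0.08, adjusted p = 0.0823) just missed the threshold. HOXC4 missed it as well at 0.28 ± 0.15 (adjusted p = 0.104), and HOXC8 held 0.550 ± 0.255 CPM in DMSO and 0.490 ± 0.226 in the combination (SD, n = 3).

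Cluster sums show the same contrast. Summed over the HOXA genes the level was 31.4 ± 0.625 CPM in DMSO and 42.3 ± 0.510 in the combination (SD, n = 3). For the HOXB genes it was 28.5 ± 0.343 and 46.8 ± 1.03 CPM, so both sums were higher in all 3 combination libraries. For the HOXC genes it was 142 ± 5.11 and 139.5 ± 2.43 CPM, which overlapped. The HOXC share of all HOX counts was 70.3% ± 0.748 in DMSO and 61.0% ± 0.798 in the combination. An exact two-sided permutation test of 3 libraries against 3 cannot go below p = 0.1, so the sums are given without a test. Shares of counts also depend on the lengths of the genes.

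**Figure D3:**
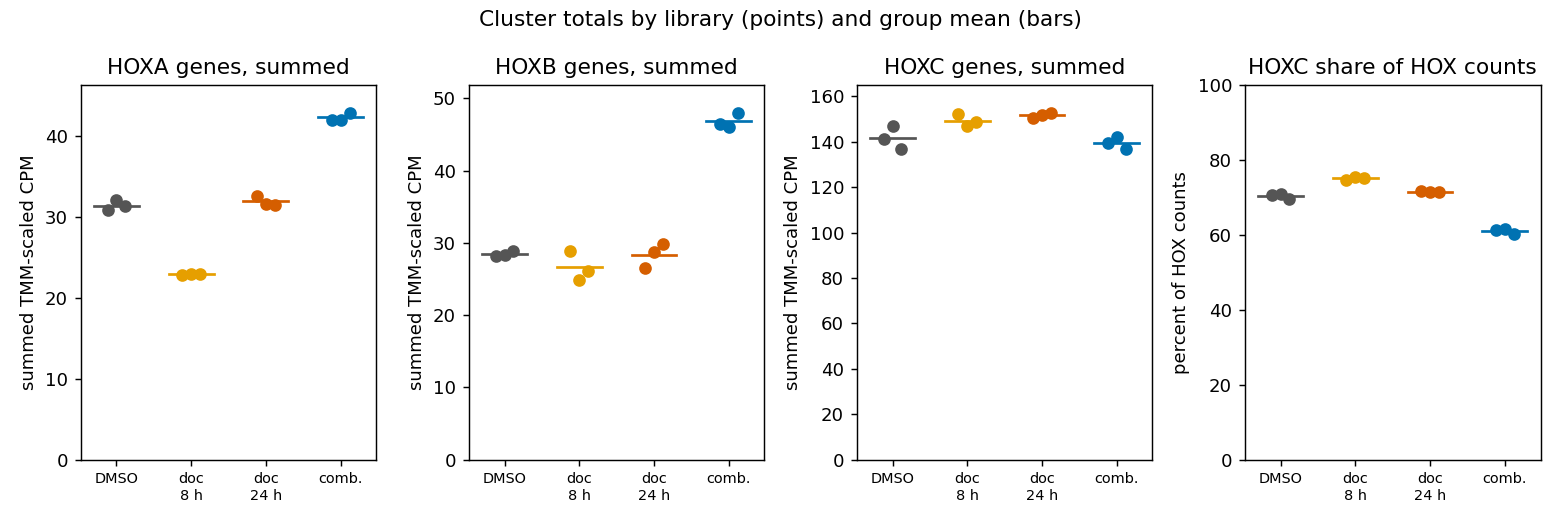
Summed TMM-scaled CPM of the HOXA, HOXB and HOXC genes and the HOXC share of HOX counts, one point per library and bars for group means. HOXA and HOXB sums are highest in the combination (42.3 and 46.8 CPM), HOXA is lowest at 8 h of docetaxel (22.9 CPM), and the HOXC share is lowest in the combination (61.0%).

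The untested members had few counts or none. HOXA7 had 24 counts in DMSO, and its 0.0887 ± 0.0246 CPM per kb (SD, n = 3) lay above the means of the tested genes HOXA9 (0.0761), HOXB2 (0.0747), HOXA13 and HOXB9. The libraries of these genes overlapped those of HOXA7. Per kb of the longest transcript HOXA7 stood at 0.106, below HOXA9 (0.112) and HOXB2 (0.112). No count of 11 members was seen in the 9 DMSO and docetaxel libraries, which together held 315846486 counts: HOXB1, HOXB8 and the 9 HOXD genes. In the combination 7 of these 11 had counts. HOXB8 had 9 counts in 2 libraries, per total count 3.39 times a floor of 3 counts over the DMSO group. HOXD12 had 4 counts in 2 libraries, 1.51 times that floor. HOXB1 had 2 counts, and HOXD8, HOXD9, HOXD11 and HOXD13 had 1 each. HOXD1, HOXD3, HOXD4 and HOXD10 were at 0 in all 12 libraries. The HOXD cluster as a whole had 8 counts in the combination, 3.01 times that floor. Of 2713 protein-coding genes without a count in the same 9 libraries, 24.8% had a count in the combination. Protein-coding genes seen in a single other group made up 4.18% for DMSO, 4.04% for 8 h and 10% for 24 h of docetaxel, each of those without a count in the 9 remaining libraries. HOXB5 had 7 counts in the combination and 1 in DMSO, a ratio of 7.90 per total count with an exact 95% counting interval from 1.02 to 356. HOXC5 had 12 and 5 counts (ratio 2.71, interval 0.889 to 9.82) and HOXA7 had 18 and 24 (0.847, 0.433 to 1.63). The intervals cover counting error only. The multiples of the floor take the combination counts as exact, so they set no lower limit on a rise.

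The genes that regulate or partner with HOX genes were read from lists of named genes. Of 13 PRC2 genes 2 rose and 9 fell in the combination (EZH1 and PHF1 rose). EZH2, whose protein is the target of tazemetostat, fell by 0.73 on the log2 scale (SE 0.05, adjusted p = 1.68e-11), from 111 ± 2.72 to 67.4 ± 3.95 CPM (SD, n = 3). Its partner SUZ12 went from 58.1 ± 2.48 to 38.2 ± 2.26 CPM. Among 18 genes of PRC1, the complex that acts with PRC2, 7 rose and 6 fell. BMI1 rose by 1.13 ± 0.06 on the log2 scale (adjusted p = 3.84e-13), from 24.9 ± 0.813 to 54.6 ± 1.81 CPM, while CBX2 went from 92.5 ± 1.92 to 55.9 ± 1.38 CPM and fell. Of 11 genes of COMPASS complexes and H3K27 demethylases 1 rose and 7 fell, among them WDR5 by 0.62 and KDM6A by 0.49 on the log2 scale. Of 6 tested upstream regulators of HOX clusters, genes of retinoid signalling and CTCF, 1 rose (RARB) and 4 fell (RARA, RARG, CYP26B1 and CTCF). The CDX factors CDX1, CDX2 and CDX4, also on that list, had too few counts to test. AKT1, which encodes a target of ipatasertib, fell by 0.32 on the log2 scale (SE 0.05, adjusted p = 1.32e-05).

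Of 9 TALE cofactor genes 4 rose and 1 fell. Among those that rose, MEIS3 and PKNOX2 passed the filter on counts only through the combination libraries. Their calls follow in part from the filter, so their values are a description and no p is given. MEIS3 went from 0.230, 0.285 and 0.236 CPM in DMSO to 10.1, 9.52 and 10.0 CPM in the combination, a log2 fold change of 5.29 ± 0.20. PKNOX2 had 3 counts over the DMSO group and 162 in the combination, a ratio of 61.0 per total count with a 95% counting interval from 20.5 to 299. MEIS1 rose by 1.03 ± 0.12 on the log2 scale (adjusted p = 1.12e-07). The fold changes of MEIS3 and PKNOX2 exceeded that of each tested HOX gene. Of 18 noncoding RNAs of the clusters 9 could be tested and 5 of these rose. HOTAIR, transcribed from the HOXC cluster opposite the coding genes and known to bind PRC2, rose by 0.40 ± 0.06 on the log2 scale (adjusted p = 1.18e-05). HOXA-AS2, which runs opposite HOXA3, rose by 1.33 ± 0.14 on the log2 scale (adjusted p = 2.26e-08). HOXA11-AS, antisense to HOXA11 and also among the 5, was higher by 1.73 ± 0.43 on the log2 scale. It passed the filter on counts only through the combination libraries, so its value is a description and no p is given. HOTTIP, at the 5′ end of HOXA beyond HOXA13, had counts in 2 combination libraries (0.0310 and 0.0648 CPM) and none in the 9 DMSO and docetaxel libraries. Of 11 tested genes flanking the clusters 6 rose and 2 fell. CALCOCO1, beyond HOXC13, rose by 1.20 ± 0.08 on the log2 scale (adjusted p = 1.39e-11), and CBX5, beyond HOXC4, fell by 0.36.

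The strand setting of the counting is not given in the sources used here, so reads of a gene and an antisense RNA that shares its exons cannot be told apart. Exons of an opposite gene cover 62.5% of the exon length of HOXA7 and 39.3% of HOXA6. The share is 31.1% for HOXA11, 16.4% for HOXA10, 15.4% for HOXA3, 16.3% for HOXB6 and 1.69% for HOXA13. Opposite exons cover 0% of HOXB7, HOXB9, HOXB13 and HOXC12. On the same strand HOXC6 shares 15.7% of its exons with HOXC4, HOXC5 and HOXC9, and HOXB6 shares 16.6% with HOXB3. Markers of other cell types also moved in the combination. The 6 fibroblast markers summed to 22.4 to 24.6 CPM in DMSO and 27.4 to 28.4 in the combination, with LUM going from 0 counts to 392. The 6 endothelial markers summed to 21.9 to 24.7 and 39.2 to 40.5 CPM, and the 6 immune markers to 54.1 to 56.8 and 38.4 to 45.0 CPM. Within these lists members moved apart. Of the 2 tested immune markers, CD14 went from 52.4 to 26.95 CPM on average and fell (adjusted p = 8.37e-11), and it made up most of the sum. CSF1R, the receptor of a macrophage growth factor, went from 2.73 to 15.4 CPM and rose 5.66-fold (adjusted p = 2.21e-15). Of the 4 tested endothelial markers, CDH5 rose 3.71-fold, from 0.647 to 2.43 CPM (adjusted p = 2.81e-06), and KDR went from 22.2 to 36.4 CPM and rose as well (adjusted p = 3.08e-07), while VWF and TEK did not pass the test. Among fibroblast markers PDGFRA rose and COL1A1 fell. LUM was called higher too, but with 0 counts the DMSO libraries did not bring it past the filter, so its values are a description. Markers with too few counts to test were PTPRC, with 5 counts in DMSO and 18 in the combination and no overlap between the groups, CD3E, with 0 and 1, and PECAM1, with 12 and 9. The part of these markers in the HOX results was not tested. All 12 libraries are labelled as the same cell line. In bulk RNA, a change in the share of cells that express a gene and a change in RNA per cell cannot be told apart.

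**Figure D4:**
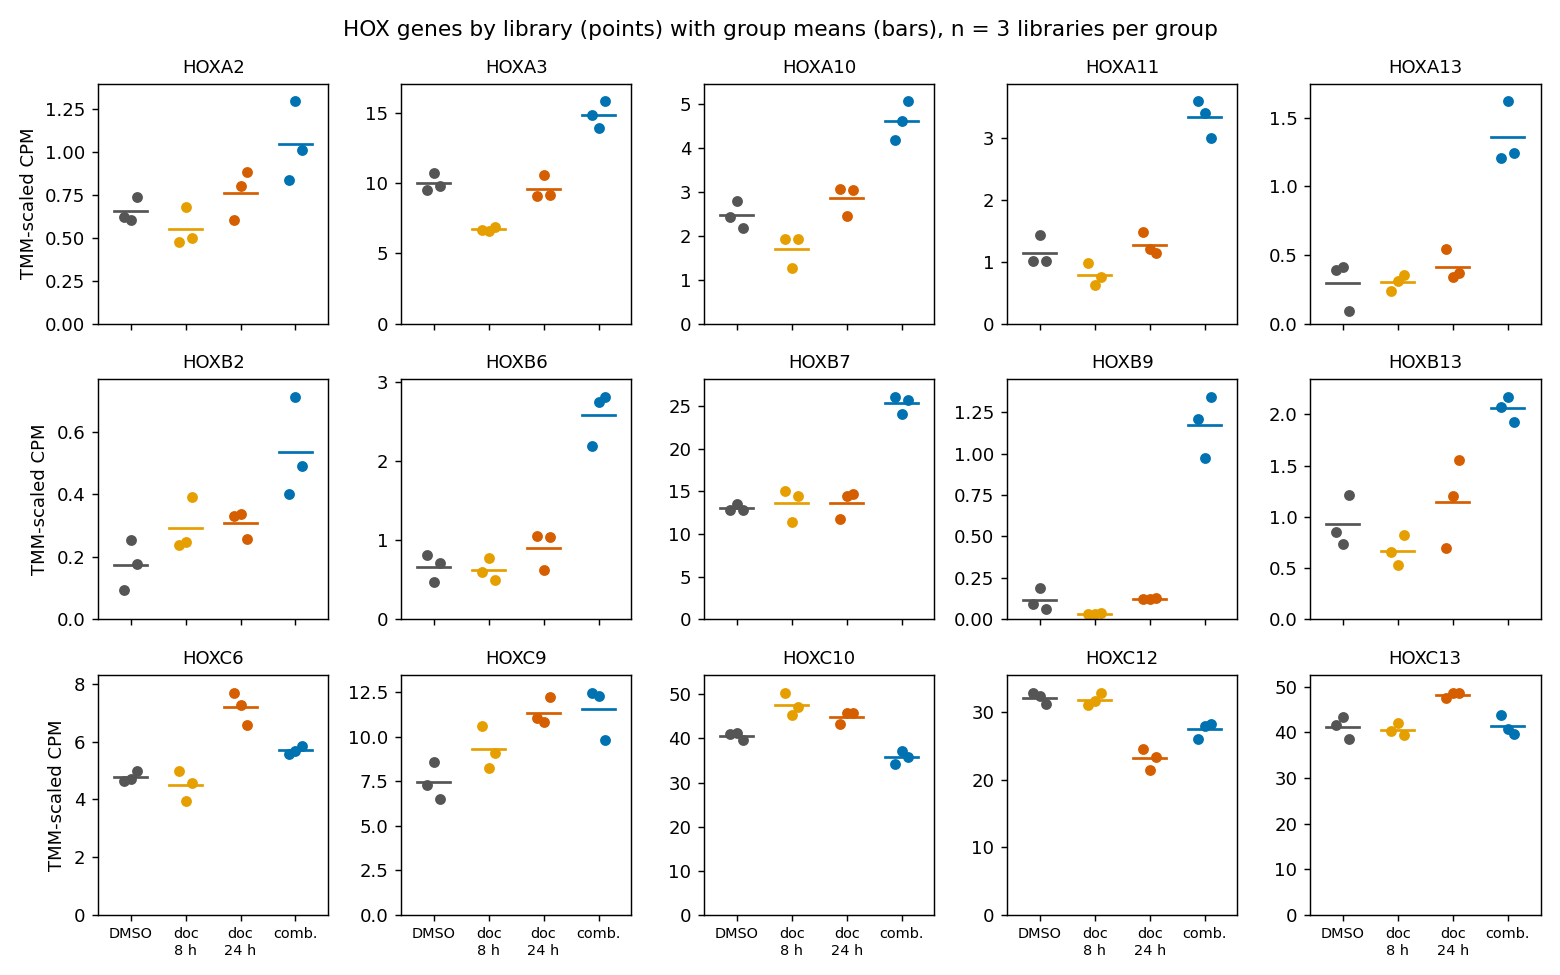
TMM-scaled CPM of 15 HOX genes in each of the 12 libraries (points) with the group means (bars); each panel has its own axis from 0. In the panels of HOXA3, HOXA10, HOXA11, HOXA13, HOXB2, HOXB6, HOXB7, HOXB9 and HOXB13 the 3 combination libraries lie above the other 9, while HOXC12 is lowest at 24 h of docetaxel (23.2 CPM on average) and HOXC6 highest there (7.19 CPM).

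Docetaxel was compared with the same 3 DMSO libraries, so the comparisons share their controls and only each one's own values are set side by side. At 8 h, 2 of the 25 tested members rose and 6 fell, where 22.5% of all genes tested rose and 24.8% fell. The members' median log2 fold change was -0.22, against -0.02 over all genes. The genes that fell were 5 of the 10 HOXA genes and HOXB3, and those that rose were HOXC9 and HOXC10. HOXA3 had 6.70, 6.58 and 6.84 CPM, all below its DMSO libraries, and fell by 0.57 on the log2 scale (SE 0.09, adjusted p = 2.11e-05). HOXA10 had 1.93, 1.27 and 1.93 CPM and fell by 0.54 (SE 0.18, adjusted p = 0.0173), also without overlap. HOXA5 fell by 0.46 (SE 0.13, adjusted p = 0.00421) and HOXA4 by 0.44 (SE 0.16, adjusted p = 0.0229). HOXB3 fell by 0.35 (SE 0.10, adjusted p = 0.00872). The summed HOXA level was 22.9 ± 0.0464 CPM at 8 h, below all DMSO libraries, and the summed HOXB level was 26.6 ± 2.04 CPM.

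HOXC10 held 50.4, 45.4 and 47.1 CPM at 8 h and rose by 0.23 ± 0.06 on the log2 scale (adjusted p = 0.00154), without overlap with DMSO. HOXC9 held 10.6, 8.25 and 9.09 CPM and rose by 0.32 ± 0.12 (adjusted p = 0.0264), with overlap. These 2 rises depended on the scaling. When libraries were scaled by their totals, the median of all genes shifted by -0.155, HOXC10 stood at 0.07 (adjusted p = 0.297) and HOXC9 at 0.17 (adjusted p = 0.231). HOX calls were then 12 lower with none higher in edgeR's test, and none higher at an unadjusted p under 0.05 either, while DESeq2 with its own size factors called 2 higher and 6 lower. Over all genes that scaling called 2288 higher and 6784 lower, where TMM factors called 3994 and 4415. Calls also rested on single libraries. HOXA4 lost its call without DMSO library A or B or 8 h library A (adjusted p = 0.051, 0.106 and 0.154), and HOXA10 without DMSO library B or 8 h library B (0.0943 and 0.122). HOXB3 lost its call without DMSO library C (0.0724), and HOXC9 without DMSO library A or C or 8 h library A (0.0575, 0.112 and 0.17). HOXB9 had 1 count in each 8 h library, 3 against 12 in DMSO, a ratio of 0.259 per total count with a 95% counting interval from 0.0469 to 0.960; the test did not call it (adjusted p = 0.0731).

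At 24 h of docetaxel 6 of the 25 tested members rose and 2 fell, where 20.2% of all genes tested rose and 22.7% fell. The median log2 fold change of the members was 0.17 and that of all genes 0.01. Of the 8 HOXC genes 5 rose and 1 fell, while 1 of 10 HOXA genes rose (HOXA5) and 1 of 7 HOXB genes fell (HOXB4). HOXC6, a gene of the mammary gland and thoracic region (chromosome 12, 53990624 to 54030823), held 4.63, 4.69 and 4.96 CPM in DMSO. It held 7.70, 7.27 and 6.59 CPM at 24 h and rose by 0.59 ± 0.11 on the log2 scale (adjusted p = 0.000141), without overlap. HOXC9 held 11.0, 10.8 and 12.2 CPM and rose by 0.61 ± 0.11 (adjusted p = 0.000144). At the 5′ end of the cluster, neighbouring genes went in opposite directions. HOXC13 held 47.4, 48.6 and 48.7 CPM, all above DMSO, and rose by 0.23 ± 0.06 (adjusted p = 0.00218). HOXC12 held 24.6, 21.5 and 23.4 CPM, all below DMSO, and fell by 0.47 (SE 0.06, adjusted p = 2.51e-06). HOXC13 shares 7.10% of its exon length with HOXC13-AS on the opposite strand, which rose as well, by 0.59 ± 0.10 on the log2 scale (adjusted p = 4.46e-05). Its part in the HOXC13 result was not tested. HOXC12 shares no exon sequence with another annotated gene.

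Smaller changes at 24 h were those of HOXC11 (log2 fold change 0.22 ± 0.08, adjusted p = 0.0329), HOXC10 (0.14 ± 0.06, adjusted p = 0.0406) and HOXA5 (0.31 ± 0.12, adjusted p = 0.0333), which rose, and HOXB4 (-0.35 ± 0.12, adjusted p = 0.0229), which fell. All 4 lost their call when single libraries were left out. The adjusted p of HOXC10 lay between 0.066 and 0.137 without DMSO library A, B or C or 24 h library B or C, and it was 0.0535 with the authors' deposited size factors. With no filter on counts the adjusted p of HOXC10, HOXC11 and HOXA5 was 0.173, 0.108 and 0.0894, and with library totals 0.0953, 0.0614 and 0.0508. That of HOXC11 was 0.162, 0.0582 and 0.11 without DMSO library A, 24 h library A and 24 h library B. That of HOXA5 was 0.125, 0.0517, 0.105 and 0.0571 without DMSO library B and 24 h libraries A, B and C. That of HOXB4 was 0.092, 0.058, 0.0648 and 0.0637 without DMSO libraries A and B and 24 h libraries A and B. HOXB2 had 0.331, 0.339 and 0.258 CPM, all above DMSO, but its log2 fold change of 0.85 ± 0.46 did not pass the test (adjusted p = 0.144). HOTAIRM1, a noncoding RNA at the 3′ end of HOXA, rose by 0.69 ± 0.10 on the log2 scale (adjusted p = 1.10e-05).

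The lists of regulators were read under docetaxel as well. Of 13 PRC2 genes 4 rose and 3 fell at 8 h, and 1 rose and 5 fell at 24 h. EZH2 itself went from 111 ± 2.72 CPM in DMSO to 124, 123 and 125 CPM at 8 h and to 96.8, 98.7 and 93.4 CPM at 24 h, a rise of 0.16 and a fall of 0.21 on the log2 scale. Of 18 PRC1 genes 1 rose and 8 fell at 8 h, and 3 rose and 6 fell at 24 h. The COMPASS and demethylase list had 3 rises and 4 falls at 8 h, and 1 and 2 at 24 h. TALE cofactors had 2 rises and 3 falls at 8 h, and 1 and 4 at 24 h. Noncoding RNAs of the clusters had 1 rise and 2 falls at 8 h (HOTAIR and HOXA-AS2 fell) and 3 rises at 24 h. Genes flanking the clusters had 3 rises and 5 falls at 8 h, and 4 and 4 at 24 h. Of the 6 upstream regulators 1 fell at 8 h (CYP26B1) and 3 at 24 h. Fibroblast, immune and endothelial marker sums were lower under docetaxel than in DMSO: 13 to 20.4, 25.8 to 36.0 and 12.2 to 18.0 CPM. The sums do not hold for each member. At either time 2 of 4 tested fibroblast and 1 of 2 tested immune markers fell, and none rose. Of 4 tested endothelial markers 1 fell at 8 h. At 24 h 1 rose and 1 fell, with a median log2 fold change of 0.59.

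Docetaxel at 24 h was also compared with docetaxel at 8 h. The hours of the DMSO libraries are not stated, so a change in the drug response and time in culture cannot be told apart. Of the 25 tested members 8 were higher at 24 h and 1 was lower, where 16.6% of all genes tested were higher and 18.3% lower. Called in either direction were 36% of the members and 34.9% of all genes, so the share of members that differed was close to that of all genes. The members' median log2 fold change was 0.29, against 0.01 over all genes. With library totals the median of all genes shifted by 0.132, and 13 members were higher and 1 lower, where 5392 of all genes were higher and 1655 lower. HOXA3, HOXA5, HOXA10, HOXA11, HOXB3, HOXB13, HOXC6 and HOXC13 were higher, and HOXC12 was lower. HOXC9 (0.29 ± 0.11, adjusted p = 0.0504) just missed the threshold, and its adjusted p was 0.00415 with library totals and lay between 0.0122 and 0.21 under the other alternatives. HOXA5 differed by 0.77 ± 0.12 on the log2 scale, from 3.34 ± 0.485 CPM at 8 h to 5.73 ± 0.269 at 24 h (SD, n = 3). HOXA3 went from 6.71 ± 0.132 to 9.61 ± 0.834 CPM, and its 24 h libraries overlapped those of DMSO. HOXA10 went from 1.71 ± 0.380 to 2.86 ± 0.339 CPM. The HOXA sum was 31.9 ± 0.574 CPM at 24 h, overlapping DMSO, after 22.9 ± 0.0464 at 8 h. HOXB13 (0.82 ± 0.27), HOXA11 (0.69 ± 0.22) and HOXB3 (0.35 ± 0.10) rested on single libraries. Without 8 h libraries A and B and 24 h libraries B and C in turn, the adjusted p of HOXB13 was 0.0674, 0.112, 0.065 and 0.25, its log2 difference was 0.51 in the last case, and with the 2 groups alone its adjusted p was 0.0533. That of HOXA11 was 0.119, 0.0698 and 0.0956 without 8 h libraries B and C and 24 h library A, and that of HOXB3 was 0.0652 and 0.0571 without 8 h library C and 24 h library A. HOXB9 had 14 counts at 24 h and 3 at 8 h, a ratio of 4.29 with a 95% counting interval from 1.20 to 23.3, and the test did not call it (adjusted p = 0.0552).

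The combination was also set against docetaxel at 24 h, the groups that were both collected after 24 h of dosing. Their plates differed, and 2% serum and 5 days of prior culture are stated for the combination only. Treatment and culture format therefore cannot be told apart here either. Of the 25 tested members 12 were higher in the combination and 3 were lower, where 32.1% of all genes tested were higher and 31.7% lower. The members' median log2 fold change was 0.26, against 0.00207 over all genes. Again the difference was largest for HOXB9 (3.20 ± 0.38, a description, since the combination brought it past the filter), which held 0.120, 0.123 and 0.129 CPM at 24 h of docetaxel. HOXA13 (1.71), HOXB6 (1.501), HOXA11 (1.40), HOXB7 (0.89), HOXB13 (0.81), HOXA10 (0.69) and HOXA3 (0.63) followed in log2 fold change. HOXC4 (0.49), HOXB4 (0.35), HOXB3 (0.25) and HOXC12 (0.25) were higher as well. The 3 members that were lower in the combination were the HOXC genes HOXC6 (-0.33), HOXC10 (-0.33) and HOXC13 (-0.22). Their levels at 24 h of docetaxel were above DMSO, and both comparisons use those libraries. By cluster, 4 of 10 HOXA and 6 of 7 HOXB genes were higher, while of 8 HOXC genes 2 were higher and 3 lower. The 12 higher members, the median and the 6 HOXB genes include HOXB9, whose call follows in part from the filter. The calls of HOXB3, HOXB4 and HOXC4 were lost without combination library B, C and C in turn, with an adjusted p of 0.138, 0.0772 and 0.0588. HOXB3 also lost its call without 24 h library B or C (adjusted p = 0.0703 and 0.104) and with no filter (0.106).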

How the data were processed

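The table holds messenger RNA from 12 libraries of MDA-MB-468 cells. The deposited counts are whole reads per gene symbol, 1 table per library. The authors also deposited a signal table, which holds each library's counts divided by a size factor between 0.829 and 1.386 (checked on 56990 symbols per library with a relative tolerance of 1e-06). The tools fastp, HISAT2 2.0.5 and DESeq2 and the build hg38 are named, without roles, per the submitters' processing notes. Neither the counter nor its annotation and strand handling is stated there. Libraries were random-primed from poly(A) RNA, per the labels' protocols.

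Groups were taken from the labels. Genes were filtered with filterByExpr (minimum count 10), and the 12 libraries were fitted together in edgeR 4.0.16 (R 4.3.3), 1 mean per group, with TMM factors from 0.917 to 1.05 and 8 residual df. Its quasi-likelihood test was run two-sided for 5 comparisons, with Benjamini-Hochberg adjustment over 17780 genes and a threshold of 0.05. The script was tested on simulated data with 200 changed genes. The standard error was taken as the absolute log2 fold change over the root of F, and the biological coefficient of variation was 5.59%. CPM carry no prior count. Exon lengths, coordinates and overlaps come from GENCODE 29 (GRCh38), which matched 57142 of 57167 distinct symbols; HOXC5, repeated in the table, was given no length or position. Replicates differed by more than sampling noise (chi-square per degree of freedom 3.08 to 14.6), so none was merged. Counts may include PCR copies and are then not independent molecules.

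The members and the gene lists were chosen with earlier results of these data known. Values per library are printed for members called against DMSO with an absolute log2 fold change of at least 0.5 and for the 5 highest levels per length in DMSO, and up to 4 genes of each list are given values, beside EZH2, AKT1, HOTAIR, HOTTIP and HOTAIRM1. Some genes that this rule names are not reported here. Other genes with values were chosen after their values were seen. Alternatives were library totals, RLE and the authors' size factors (the last chosen after seeing the data), no filter or a minimum count of 30, DESeq2 1.42.0, the replicate letter as a block, the 2 groups alone and each library left out.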

Additional observations from a re-analysis of the deposited data

Results flagged for a closer look

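The levels of 9 HOX genes differed between 8 h and 24 h of docetaxel in a test of the difference itself (edgeR, adjusted p under 0.05, n = 3 libraries per time). They were 36% of the 25 tested members, close to the 34.9% of all genes called in that comparison. On the log2 scale, the effect at 24 h minus that at 8 h was 0.52 for HOXA3, 0.77 for HOXA5, 0.75 for HOXA10 and 0.69 for HOXA11. It was 0.35 for HOXB3, 0.82 for HOXB13, 0.67 for HOXC6 and 0.25 for HOXC13, and -0.46 for HOXC12. Both effects are measured against the same DMSO libraries, so the difference equals the comparison of the 2 docetaxel groups. Hours of the DMSO libraries are not stated, so a change in the drug response and time in culture cannot be told apart. With library totals the median of all genes shifted by 0.132 in that comparison.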

How the results depend on the processing

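Counts of HOX calls moved by over 1.5 times with the scaling, the filter or a library left out. With library totals, docetaxel at 8 h had 0 members higher and 12 lower, docetaxel at 24 h had 3 higher, and 24 h against 8 h had 13 higher. With no filter on counts, docetaxel at 24 h had 3 higher. Leaving out each library gave 1 to 2 higher and 4 to 6 lower at 8 h, 3 to 5 higher and 1 to 2 lower at 24 h, and 11 to 13 higher and 2 lower in the combination against DMSO. It gave 6 to 8 higher for 24 h against 8 h, and 10 to 12 higher and 3 lower for the combination against docetaxel at 24 h. Of 917 alternative values of 66 gene results, 838 kept direction and side of the threshold, 62 lost the call, 17 gained it and 0 reversed. HOXC6 passed in the combination against DMSO with RLE factors, a minimum count of 30 and the 2 groups alone (adjusted p = 0.0452, 0.0286 and 0.0425). The cause was not tested. Same-letter libraries showed no clear shared deviation (correlations of -0.134 to 0.0552 over genes). These values cannot decide whether same-letter libraries share a culture, because a weak shared effect could be hidden by the spread between libraries. HOX calls were also counted with the replicate letter fitted as a block. Docetaxel against DMSO then had 2 members higher with 6 lower after 8 h, but 6 higher with 2 lower after 24 h. Relative to 8 h, the later docetaxel time had 9 higher with 1 lower. For the combination, 13 were higher with 2 lower than DMSO, while 12 were higher with 3 lower than docetaxel at 24 h. Depth limits the HOXD genes, HOXB1, HOXB5, HOXB8 and HOXC5, whose few counts allow no test.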
